A study of Rattus norvegicus with 6 samples.

Results

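Phospholipase C beta enzymes and the Gq-class alpha subunits that switch them on were examined in endothelial cells of rats with and without interleukin-33. The set held 6 genes of the 15037 named genes on the array: Plcb1, Plcb2, Plcb3, Plcb4, Gnaq and Gna11. They were taken by gene symbol, each had 1 probeset, and all 6 passed the filter on dim genes, which 11515 genes passed in all. The genes were selected on the genotype comparison itself, because Plcb4 was bright and higher in all knockout arrays. Their genotype values are therefore given as a description, without a test.

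The arrays came from blood vessel endothelium of abdominal skin in Sprague-Dawley rats, with 3 arrays from Il33 knockout rats, numbered 28, 27 and 52, and 3 from wildtype rats, numbered 34, 45 and 37. Each genotype held 2 females and 1 male, the males being knockout 52 and wildtype 37. All skin was digested with collagenase, depleted of CD45+ and Lyve-1+ cells and enriched for CD31+ cells by magnetic sorting. The ages of the animals and the extent of the deletion were not given in the sources used here. One animal gave each array, so the errors cover the spread between animals.

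When a hormone or mediator such as histamine, thrombin or bradykinin binds a Gq-coupled receptor, the alpha subunit takes up GTP and activates phospholipase C beta at the membrane. The enzyme cleaves the lipid PIP2 into IP3, which opens calcium channels of the endoplasmic reticulum, and diacylglycerol, which activates protein kinase C. In endothelium this relay is known for raising calcium, nitric oxide release and permeability, and in human skin somatic GNAQ mutations in endothelial cells cause capillary malformations. Phospholipase C beta also speeds GTP hydrolysis by the alpha subunit, so it ends the signal that it carries.

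The values were log2 expression after RMA, a normalization that makes the arrays alike, with a median of 4.63 to 4.78 and a highest value of 19.70 to 19.93 per array. Levels of different probesets cannot be ranked against each other, so each gene is compared across animals only. Background was read from 23 control probesets, whose highest value was 5.36 to 5.87 per array. Plcb1, Plcb4, Gnaq and Gna11 lay above that highest background value on all 6 arrays. Plcb3 did so on 2 arrays and Plcb2 on 0, so Plcb2 lay within the range of background throughout and Plcb3 on the other 4 arrays. None of the 6 genes came within 0.5 of the highest value of any array. Il33 itself had 8.07, 8.37 and 9.82 in knockout 28, 27 and 52, against 13.86, 16.32 and 16.60 in wildtype 34, 45 and 37. It fell by 6.84 (limma adjusted p = 0.0439), and was the 1 gene called between genotypes among those tested, or 0.00868%. Blood endothelial markers were bright on every array, with list medians of 14.63 to 15.08 in knockout and 14.30 to 14.80 in wildtype. Plvap, of endothelial fenestrae, and Cdh5, of endothelial junctions, were at 19.79 and 19.67 in knockout and 19.77 and 19.66 in wildtype, close to the highest values an array gave. Eng, a TGF-beta co-receptor, was at 18.89 in knockout and 18.59 in wildtype. Leukocyte markers, which the sort should remove, had medians of 3.28 to 4.33 in knockout and 3.64 to 5.17 in wildtype, but 4 of the 11 lay above the highest background probeset on all 6 arrays. These were Cd68 (9.34 to 10.72 in knockout and 8.85 to 10.50 in wildtype), Lcp1 (9.29 to 10.08 and 9.30 to 10.44), Lyz2 (6.65 to 9.44 and 6.85 to 10.76) and Cd74 (6.45 to 9.70 and 6.63 to 9.91). Ptprc, which encodes CD45, was 4.59 to 5.80 in knockout and 3.99 to 7.72 in wildtype, with the highest value in wildtype 34.

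Plcb4 and Plcb1 lie next to each other on rat chromosome 3 in the annotation of assembly GRCr8, with no other protein-coding gene between them. Their promoters are shown because the 2 neighbouring paralogs had different patterns across the animals. Both sequences are from RefSeq, build GRCr8, on the + strand, and cover 250 bases before to 50 bases after the start site the table uses. The capitals mark GC boxes (GGGCGG or its reverse complement CCGCCC), the short motif bound by Sp1-like factors, searched on both strands with overlapping matches counted.
Plcb4, chr3:143405723-143406022: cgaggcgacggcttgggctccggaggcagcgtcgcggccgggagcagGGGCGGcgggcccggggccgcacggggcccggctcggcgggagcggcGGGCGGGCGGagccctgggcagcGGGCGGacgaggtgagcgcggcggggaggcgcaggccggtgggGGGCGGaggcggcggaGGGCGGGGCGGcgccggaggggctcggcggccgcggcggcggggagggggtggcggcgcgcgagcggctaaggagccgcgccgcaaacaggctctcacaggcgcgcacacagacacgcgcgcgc
Plcb1, chr3:142512515-142512814: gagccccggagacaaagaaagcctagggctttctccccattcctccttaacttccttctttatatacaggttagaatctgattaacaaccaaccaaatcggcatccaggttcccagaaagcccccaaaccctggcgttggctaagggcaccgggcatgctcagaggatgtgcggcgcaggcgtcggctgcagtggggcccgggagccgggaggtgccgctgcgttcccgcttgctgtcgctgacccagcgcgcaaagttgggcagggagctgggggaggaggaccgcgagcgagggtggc
The Plcb4 window held 7 GC boxes and 84.3% G or C, and the Plcb1 window 0 GC boxes and 61.7% G or C. Of all 33469 promoters of this length in the table, 33.1% held at least 1 GC box. Their median was 51.7% G or C, below both windows, so this share is not matched for base composition. The Plcb1 window had 1 TATAAA match on either strand and the Plcb4 window 0, where 14.2% of all promoters held 1 or more. A GC box was present too in the windows of Plcb3 (7), Gnaq (2) and Gna11 (2). Promoters were matched for 5 of the 6 genes. These matches describe the sequence and say nothing about which factor binds.

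Plcb4, an isoform best known from retina and cerebellum and related to the fly visual phospholipase norpA, was higher in every knockout array. Its values were 15.54, 15.51 and 15.23 in knockout 28, 27 and 52, against 14.52, 14.31 and 14.45 in wildtype 34, 45 and 37. The lowest knockout array lay 0.71 above the highest wildtype array. The means were 15.43 ± 0.17 and 14.43 ± 0.11 (SD, n = 3 each), which is a difference of 1.0 on the log2 scale, or 2-fold if the values are read as log2. Groups that did not overlap were seen for 6.25% of all genes tested, 3.36% with the knockout higher and 2.89% with it lower. These values chose the set, so nothing is read from their place against that background.

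Plcb4 was chosen because it was higher in all knockout arrays, so a difference above 0 in every subset was fixed in advance. The subsets therefore describe only the size of the Plcb4 difference. Among females alone it was 1.11, and between the males 0.78. The mean of 8 spike-in control probesets split the arrays into a high side (28, 34 and 45) and a low side (27, 52 and 37). This split crosses the genotypes. On the high side the Plcb4 difference was 1.13, and on the low side 0.92. Leaving out each array in turn gave 0.94 to 1.10.

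**Figure D1:**
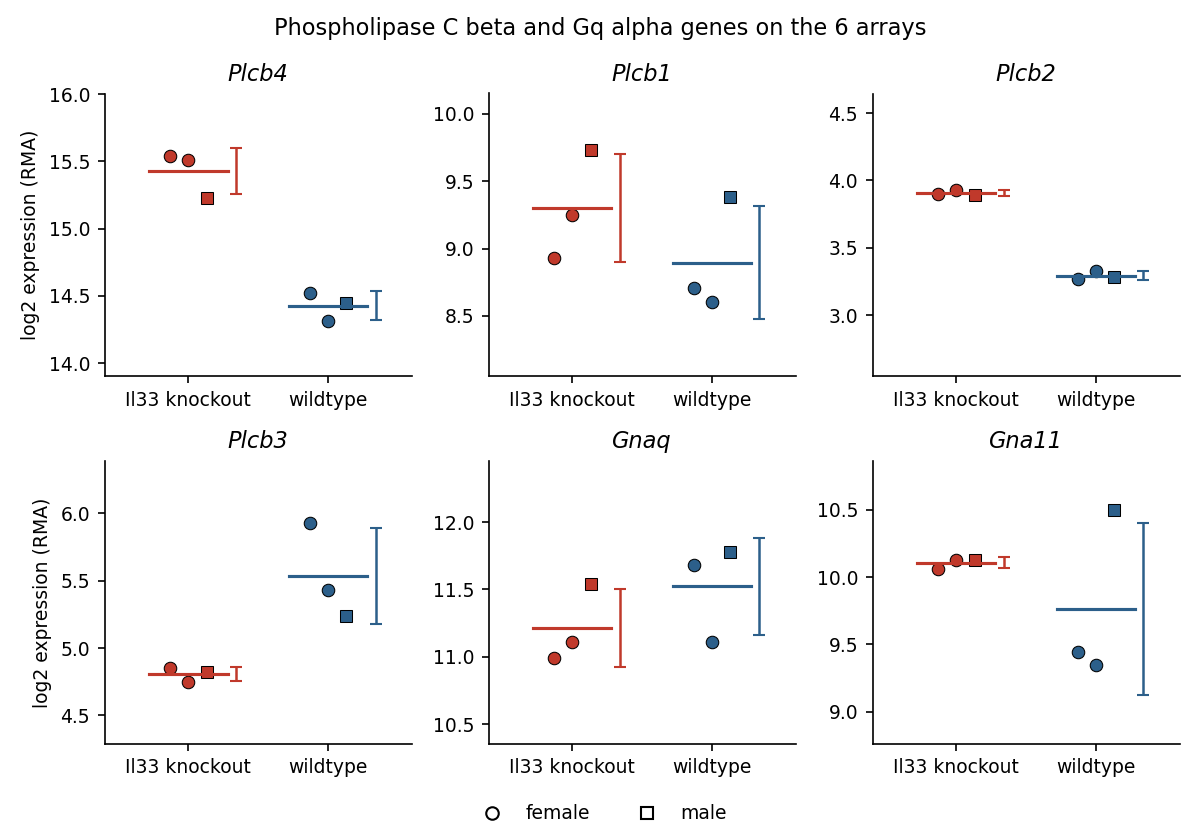
Log2 expression (vertical axis, RMA values; each panel spans the same range of log2 units around its own centre) of the 6 genes in Il33 knockout and wildtype arrays; circles are females, squares males, lines means and bars ± 1 SD (n = 3 each). Plcb4 was 15.23 to 15.54 in knockout and 14.31 to 14.52 in wildtype, while Plcb1, Gnaq and Gna11 overlapped.

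Of the 13 measured markers of blood endothelium, 11 were higher on average in the knockout and 0 were called. The sum of their log2 values was 193.91 to 196.86 in knockout and 189.11 to 193.88 in wildtype, so the sums stood apart by 0.03 while the list medians overlapped. Of the 12 pericyte and smooth muscle markers, 10 were higher on average in the knockout, with sums of 117.43 to 125.53 in knockout and 107.45 to 125.29 in wildtype. The lists of lymphatic, pericyte, keratinocyte, fibroblast, leukocyte, erythroid, neural and melanocyte markers had summed values that overlapped between the groups. Of the tested markers, 6 of 8 keratinocyte, 8 of 9 fibroblast and 7 of 8 leukocyte ones were lower on average in the knockout. Their median differences were -1.41, -0.69 and -0.47. In the lymphatic list 5 of 6 lay above 0, where 53.8% of all genes tested did. In the erythroid and platelet list 7 of 7 markers lay above 0, with sums of 49.53 to 62.83 in knockout and 40.84 to 51.15 in wildtype. In bulk RNA, more cells of a type and more RNA per cell cannot be told apart. Taken relative to the mean of the 13 markers on the same array, Plcb4 was 0.54, 0.59 and 0.09 in knockout 28, 27 and 52, against -0.03, -0.29 and -0.46 in wildtype 34, 45 and 37. The groups still did not overlap, and the difference was 0.67. This scaling, chosen after the data were seen, lowered every difference by 0.33 and put the median of all genes at -0.29. The share of all genes without overlap on this scale was not computed. How much of the Plcb4 difference follows the share of endothelial or other cells was not tested.

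Plcb1, a Gq-activated isoform also found in the nucleus, overlapped between the genotypes although it is the neighbour of Plcb4. It had 8.93, 9.25 and 9.73 in knockout 28, 27 and 52, against 8.71, 8.60 and 9.38 in wildtype 34, 45 and 37. The male had the highest value of each genotype. The means were 9.30 ± 0.40 and 8.90 ± 0.42 (SD, n = 3 each), and the difference was 0.41. It was 0.19 without knockout 52 and 0.65 without wildtype 37. Relative to the endothelial markers it was 0.075. Lamp5, the next protein-coding gene on the other side of Plcb4, was 5.20 in knockout and 5.34 in wildtype, and Tmx4, beyond Plcb1, was 6.09 and 6.13.

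The 2 dim isoforms differed in opposite directions. Plcb2, an isoform of blood cells and taste cells, had 3.90, 3.93 and 3.89 in knockout, against 3.27, 3.33 and 3.28 in wildtype. The difference was 0.61 and the groups did not overlap, but every value lay below the highest background probeset of its array. Plcb3, a broadly expressed isoform, had 4.85, 4.75 and 4.82 in knockout 28, 27 and 52, against 5.93, 5.43 and 5.24 in wildtype 34, 45 and 37. It was lower on every knockout array, with means of 4.81 ± 0.05 and 5.53 ± 0.36 (SD, n = 3 each) and a difference of -0.73. Among females alone Plcb3 differed by -0.88, and between the males by -0.42. Without overlap the sign in such subsets was fixed in advance, so only the sizes are described. Only wildtype 34 and 45 lay above the highest background probeset. The keratinocyte markers also varied between these animals, with medians of 10.25, 7.96 and 7.73 in knockout 28, 27 and 52, against 13.38, 10.55 and 6.95 in wildtype 34, 45 and 37. With that median as a covariate the Plcb3 difference was -0.57. The same covariate gave 0.19 for Plcb1, which was 0.41 without it, and 0.10 for Gna11, which was 0.34. It gave 1.03 for Plcb4, 0.61 for Plcb2 and -0.38 for Gnaq. The part of keratinocyte RNA in these differences was not tested.

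Gnaq and Gna11 encode the 2 broadly expressed alpha subunits that activate phospholipase C beta. Gnaq had 10.99, 11.11 and 11.54 in knockout 28, 27 and 52, against 11.68, 11.11 and 11.78 in wildtype 34, 45 and 37. The ranges overlapped, and knockout 27 and wildtype 45 had the same value. The means were 11.21 ± 0.29 and 11.52 ± 0.36 (SD, n = 3 each), a difference of -0.31. Leaving out 1 array gave -0.18 (without wildtype 37) to -0.52 (without wildtype 45). Relative to the endothelial markers the difference was -0.64, with -4.01 to -3.60 in knockout and -3.49 to -2.87 in wildtype. On this scale the groups did not overlap, but the scaling lowered the difference of every gene. The share of all genes without overlap on it was not computed, so nothing is read from the Gnaq separation.

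Gna11 was even among the knockout animals and uneven among the wildtype ones. It had 10.06, 10.13 and 10.13 in knockout 28, 27 and 52, against 9.44, 9.35 and 10.50 in wildtype 34, 45 and 37. Both knockout females lay above both wildtype females, and the knockout male lay below the wildtype male. The difference was 0.34 over all arrays, 0.70 among females alone and -0.37 between the males. It was 0.14 without wildtype 45 and 0.71 without wildtype 37. The genotype by sex term of limma was -1.07 (SE 0.69, unadjusted p = 0.157, adjusted p = 0.999), so the sexes were not shown to differ. That term was called for 0 genes tested, or 0%, and 119 had an unadjusted p under 0.05. Wildtype 37 is also the only wildtype array of low spike-in signal, so sex and that split cannot be told apart here.

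**Figure D2:**
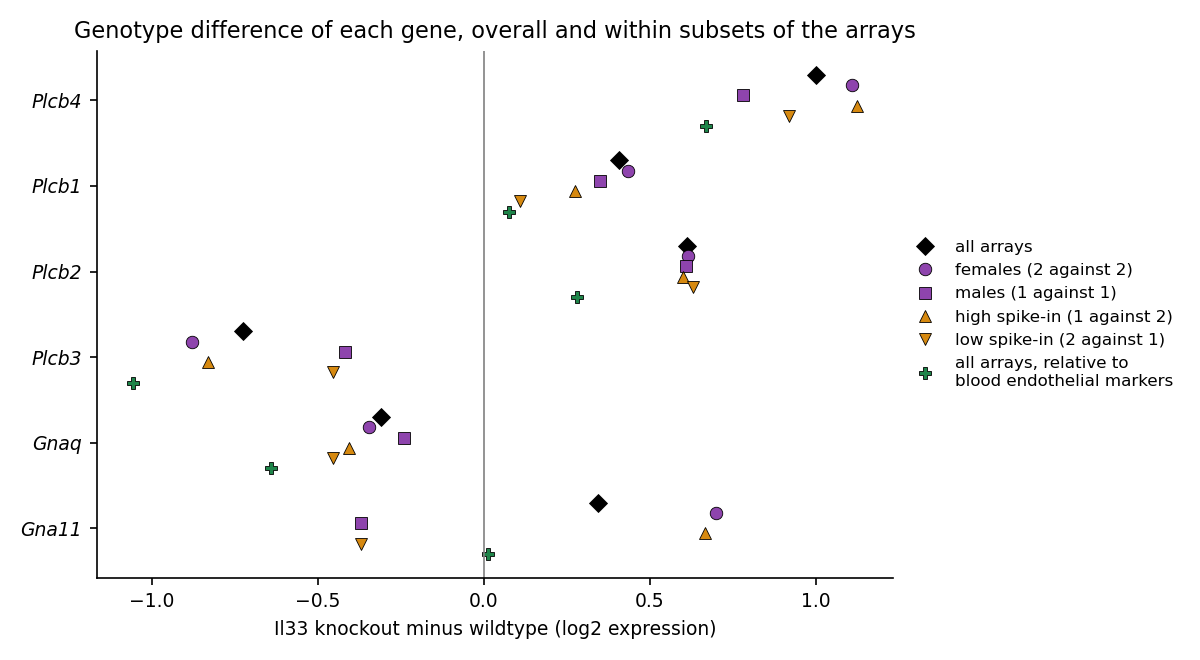
Knockout minus wildtype difference in log2 expression (horizontal axis) for the 6 genes, over all arrays, within each sex, within each side of the spike-in split, and relative to the blood endothelial markers. Plcb4 ran from 0.67 to 1.13. The signs of Plcb4, Plcb2 and Plcb3 in subsets of the arrays were fixed in advance, since their groups did not overlap. Gnaq was below 0 in every setting shown, of which the endothelial scaling lowers every gene. Gna11 was above 0 in females (0.70) and below 0 in males (-0.37).

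Over the 6 genes, 4 differences lay above 0 and 2 below. The median difference was 0.38, against 0.037 over all genes tested. Between genotypes 2 genes did not overlap with the knockout higher (Plcb4 and Plcb2), where the share over all genes tested was 3.36%, and 1 with the knockout lower (Plcb3), where it was 2.89%. Of these, Plcb2 lay below the highest background probeset on all 6 arrays and Plcb3 on 4. Plcb2 also passed the filter on dim genes only through the knockout arrays, where it was higher. The set was chosen with this comparison in view, so the counts describe it only.

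The sex comparison was not used in choosing the genes and was tested in limma with genotype in the model. None of the 6 genes passed, where 3 genes, or 0.0261%, were called among all tested. The called genes, named after their values were seen where they are Y-linked, were Ddx3y and Eif2s3y, higher in males by 6.0 and 5.97, and the lymphatic chemokine Ccl21, which differed by -4.49. An unadjusted p under 0.05 was seen for 2148 genes, or 18.7%, and for 0 of the 6. Plcb1 came nearest, with 9.73 and 9.38 in the males, against 8.60 to 9.25 in the females. It was higher in both males than in every female, by 0.68 on average (95% interval -0.01 to 1.37, limma unadjusted p = 0.0527, adjusted p = 0.274). Gna11 differed by 0.57 (95% interval -0.21 to 1.35) and Gnaq by 0.44 (-0.29 to 1.16), males minus females. Plcb4 differed by -0.13, with a 95% interval of -0.82 to 0.56 (adjusted p = 0.844). Plcb3 differed by -0.21 (95% interval -0.94 to 0.52) and Plcb2 by -0.02 (-0.70 to 0.65). Of the 6 genes 3 lay above 0, with a median of 0.21. Over all genes tested the male minus female median was 0.18, with 61.7% above 0. Both males lay on the low side of the spike-in split and had lymphatic marker medians of 5.24 and 7.12, against 7.62 to 8.56 in the females. The part of these in the sex values was not tested.

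**Figure D3:**
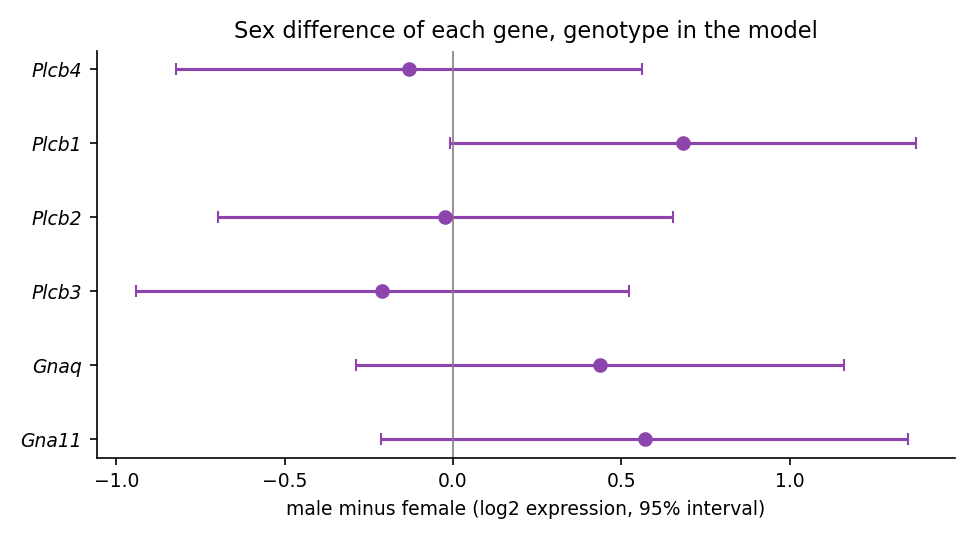
Male minus female difference in log2 expression (horizontal axis) of the 6 genes, with points for the limma estimate and bars for its 95% interval (2 males, 4 females, genotype in the model). All 6 intervals include 0, and that of Plcb1 reaches from -0.01 to 1.37.

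The rest of the relay was read from lists of 145 genes, of which 130 were measured and 108 tested. Between genotypes 0 of the 108 passed in either direction, and 69 lay above 0 and 38 below. The median difference of the 108 was 0.11. Over all genes tested it was 0.037, with 53.8% above 0. The groups did not overlap for 4 genes with the knockout higher and for 4 with it lower, where the share over all genes tested was 3.36% and 2.89%. On leaving out each array in turn, the differences of Gna12, Gnai2, Gng11, Hrh1, Rgs2, Itpr2, Itpr3 and Prkch took both signs, so no direction is read from the values given for them.

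The other Gq-class alpha subunits gave little signal. Gna14 was 3.44 ± 0.44 in knockout and 4.32 ± 0.93 in wildtype (SD, n = 3 each), and Gna15, a subunit of blood cells, was too dim to test. Among other alpha subunits, Gna12 and Gna13, which form a class of their own, differed by 0.18 and 0.80. Gnai2, which lowers cyclic AMP, differed by 0.11, and Gnas, which raises it, by -0.18. Of 10 tested in that list 6 lay above 0. For the beta and gamma subunits the median was 0.027 over 11 tested, with Gnb1 differing by 0.43 and Gng11 by 0.03. Between the males Gnb1 differed by -0.16.

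Receptors that signal through Gq had 14 of 21 tested members above 0 and 6 below, with a median of 0.22, and 0 were called. Bdkrb2, the bradykinin receptor, had 6.71 ± 0.53 in knockout and 4.93 ± 1.73 in wildtype (SD, n = 3 each). Its wildtype females had 4.19 and 3.70 and the wildtype male 6.91, within the knockout range of 6.13 to 7.17, and the 2 males differed by 0.26. Both wildtype females lay below the highest background probeset of their arrays (5.46 and 5.36), so the size of the difference of 1.77 rests on values within background. F2r, the thrombin receptor, was 11.23 ± 0.53 and 10.49 ± 0.96, and Hrh1, the histamine receptor, 8.30 ± 0.87 and 7.91 ± 1.12. The F2r difference of 0.74 was 0.20 without wildtype 45. The Hrh1 difference of 0.39 was -0.10 without knockout 52, -0.12 without wildtype 34, -0.08 with spike-in signal as a block and -0.21 with the keratinocyte median as a covariate. S1pr3, a sphingosine-1-phosphate receptor, was 5.71 ± 0.08 in knockout and 4.91 ± 0.73 in wildtype without overlap, and was above background on 3 arrays. Agtr1a, an angiotensin receptor named after its values were seen, had 8.92, 8.58 and 8.52 in knockout, against 7.73, 6.74 and 7.91 in wildtype. P2ry2, a nucleotide receptor, differed by 0.38, but by 0.005 to 0.755 on leaving out each array and by -0.35 between the males. F2rl3 differed by 0.35 with both groups near background, and P2ry1 was too dim to test.

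Of the proteins that switch Gq off, listed with the chaperone Ric8a, 8 of 11 lay above 0, with a median of 0.29 and 0 called. Rgs5, a GTPase activator that also marks pericytes, was 18.59 ± 0.08 in knockout and 17.77 ± 1.13 in wildtype (SD, n = 3 each), and wildtype 45 alone was at 16.49. Rgs2 differed by 0.12 and Grk2, a receptor kinase that binds Gq, by 0.29. Ric8a, which helps alpha subunits fold, differed by -0.24. Rgs16, the member of this list with the largest difference and named after its values were seen, had 18.98, 19.14 and 18.83 in knockout, against 17.32, 17.55 and 18.85 in wildtype. Here too wildtype 37, the male, lay within the knockout range.

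Other phospholipase C isoforms had 2 of 6 tested members above 0. Plcg1, which acts below receptor tyrosine kinases such as the VEGF receptor, was 11.34 ± 0.44 in knockout and 11.03 ± 0.35 in wildtype. Plcg2, its counterpart in blood cells, was 5.94 ± 0.17 and 6.19 ± 0.06, lower on every knockout array. Among enzymes that supply the lipid substrate, 7 of 11 lay above 0. Pip5k1a, which makes PIP2 and was named after its values were seen, had 8.95, 9.33 and 9.12 in knockout, against 8.39, 8.13 and 8.83 in wildtype.

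Downstream, the IP3 and calcium list had 17 of 23 members above 0, with a median of 0.17 and 0 called. The IP3 receptors Itpr1, Itpr2 and Itpr3 differed by 0.38, 0.06 and 0.31. Leaving out each array gave 0.18 to 0.52 for Itpr1, -0.14 to 0.45 for Itpr2 and -0.19 to 0.84 for Itpr3, lowest without wildtype 45 for Itpr3. Nfatc1, a transcription factor that calcineurin activates, was 8.33 ± 0.36 in knockout and 7.74 ± 0.58 in wildtype, and its feedback target Rcan1 was 7.93 ± 0.60 and 8.68 ± 0.63 (SD, n = 3 each). The diacylglycerol list had 8 of 13 members above 0, with a median of 0.10. Prkch, a protein kinase C of endothelium, differed by 0.10. Dgka, a kinase that removes diacylglycerol and was named after its values were seen, had 6.35, 6.11 and 6.87 in knockout, against 7.54, 7.10 and 7.17 in wildtype. Ednrb and Prkca were not analysed here.

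**Figure D4:**
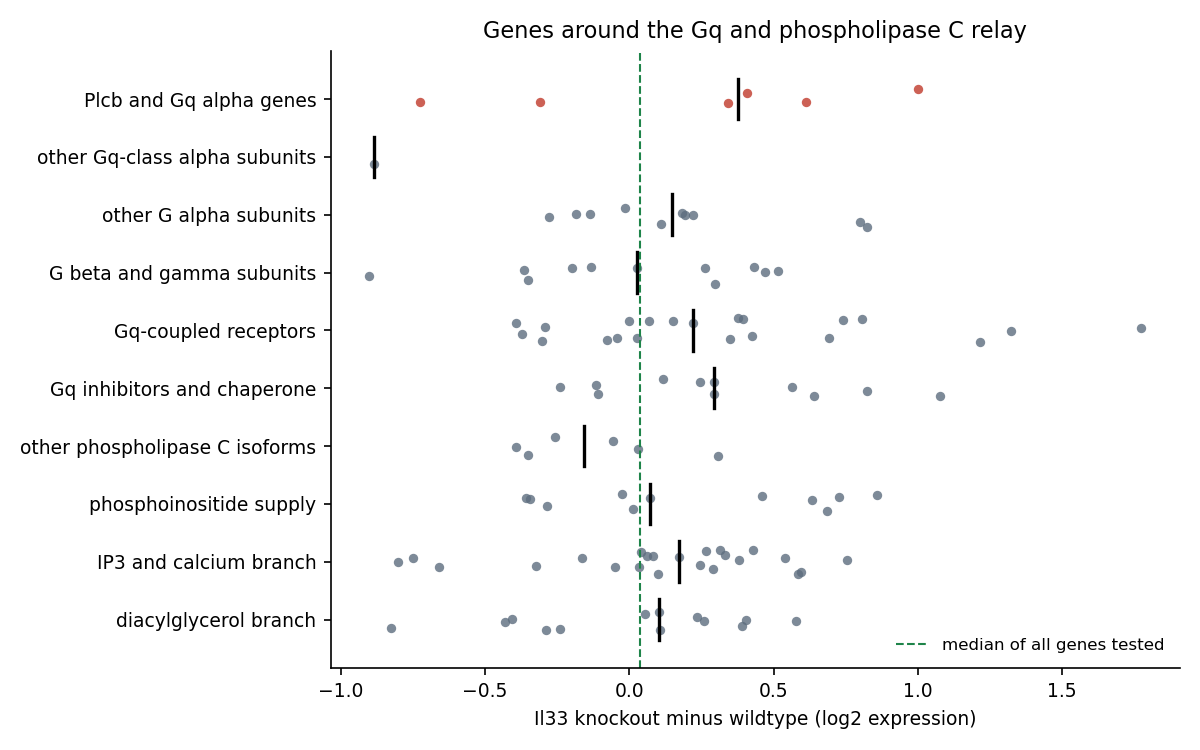
Knockout minus wildtype difference in log2 expression (horizontal axis) of tested genes of the relay, one row per list shown, with black bars at list medians and a dashed line at the median of all genes tested (0.037). Points of every list shown with more than 1 tested gene lie on both sides of 0.

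The genes whose pattern over the 6 arrays was nearest to that of Plcb4 were Kctd13, Zfp772, Vegfd, Tcim and Trmt1. Nearness was the root mean square difference between the values of 2 genes, each less its own mean. The 5 had differences of 0.133 to 0.166 on the log2 scale, against a median of 0.66 over 11497 genes. A gene with no variation would be 0.51 from Plcb4. Tcim had 9.64, 9.61 and 9.21 in knockout 28, 27 and 52, against 8.16, 8.33 and 8.56 in wildtype 34, 45 and 37. Vegfd, a lymphatic growth factor, had 5.30, 5.35 and 4.79 in knockout, against 4.30, 3.88 and 4.44 in wildtype, near background. Within the set, Plcb2 lay 0.23, Plcb1 and Gna11 0.50 each, Gnaq 0.72 and Plcb3 0.89 from Plcb4. Such nearness follows from the genotype difference that chose Plcb4, so it is a description.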

How the data were processed

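RNA was extracted from magnetically sorted cells, biotin-labelled and hybridised, 1 array per rat (labels' protocols). The authors deposited 1 value per probeset, read here as log2 expression. Per the submitters' processing notes they used RMA and Affymetrix Expression Console; no version, probeset library or build is stated in the sources used here. RMA gives the arrays 1 distribution, which can hide global shifts. The values run up to 19.93, so every fold size depends on the log2 reading.

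Of 24834 probesets, 15049 had 1 gene symbol in the platform annotation, 0 had several, and 8139 apart from controls were unnamed. The Entrez identifiers of all 15049 matched the GRCr8 RefSeq table. Where a symbol had several probesets (10 symbols) the one of highest mean was kept. Tests left out genes whose mean lay below 3.52, the 25th percentile over probesets. Genotype, sex (with genotype) and their interaction were fitted with limma 3.58.1 in R 4.3.3 over 11515 genes, two-sided, with Benjamini-Hochberg adjustment at 0.05. The number of arrays limits the precision. On simulated data with 200 of 11515 genes changed, the genotype comparison recovered 7.2% at a log2 difference of 1 and 59.1% at 2. The sex comparison recovered 0.3% and 44%. The simulated spread left out differences between the sexes, which remain in the real genotype fit. The genotype recovery could therefore be lower on the real data.

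The members and gene lists were chosen with earlier results of these data known. Genes named are the 6 members, a preset choice from the pathway lists, called list members and the 5 patterns nearest to Plcb4. The 3 brightest blood endothelial markers, Ptprc and the leukocyte markers above background on all 6 arrays are named too. Otherwise the brightest markers of the other lists, which were planned to be named, are left out. The median of the keratinocyte list is used as a covariate. Alternatives were filters, normalization, covariates, weights, statistics and leaving out each array. No set tests were made. One short pathway list enters the totals but is not reported here.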

Additional observations from a re-analysis of the deposited data

How the results depend on the processing

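The Plcb4 difference between genotypes stayed above 0 in all 15 alternatives. These reuse the values that chose Plcb4, so the sign lends no support and only the sizes are described. The Plcb4 difference was 0.78 in the males only and 0.67 relative to the blood endothelial markers. On leaving out each array in turn it was 0.94 to 1.10. The count of genes called between genotypes was 0 without a filter, with a filter at the 50th percentile, with an unmoderated statistic and in the females only. It was 0 to 1 on leaving out each array in turn; it was 0 without knockout 28, 27 or 52 and without wildtype 45 or 37. The called gene was Il33, whose difference stayed below 0 in all 18 alternatives. The count for sex was 29 with arrays centred on their medians, 26 with the trend and robust options, 717 with array weights, 0 with an unmoderated statistic (1422 at an unadjusted p under 0.05) and 27 without a genotype term, and 2 to 66 on leaving out each array, the 66 without knockout 27. In none of these sex comparisons was 1 of the 6 genes called. Values of the sex difference that changed sign were 0.18 for Plcb2 after quantile normalization and 0.08 after centring, 0.19 for Plcb3 with the keratinocyte median as a covariate and 0.02 without wildtype 37 (-0.44 to 0.02 on leaving out each array), and 0.035 for Plcb4 without knockout 52 (-0.295 to 0.035); the cause was not tested. The genotype by sex count was 0 in the 7 alternatives run, none of which left out an array or added a covariate. No paired analysis was made, because the labels used here give animal numbers and sex but no pairing between the genotypes.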

Other observations

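Gnb4, a beta subunit that was singled out after its values were seen, had the smallest p of the sex comparison among the relay's genes. It had 8.91 and 8.74 in the males (knockout 52 and wildtype 37), against 6.15, 6.91, 6.01 and 5.67 in the females (knockout 28 and 27, wildtype 34 and 45). Both males lay above every female, and the difference was 2.64 (limma adjusted p = 0.0654), which did not pass. Over 17 alternatives it ranged from 2.04 to 2.90, with adjusted p from 0.0111 to 0.874, and it passed in 5. With spike-in signal as a block it was 2.04 (adjusted p = 0.822). Sex and spike-in side cannot be told apart fully, since both males are on the low side.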
